A study of Oryza sativa with 4 samples.

Results

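Of 37830 rice loci counted in 2 lines, 75 outside 7 excluded chromosome blocks were detected in a single line alone, or nearly so. A gene belonged to this set if both libraries of one line held 20 or more reads of it and both libraries of the other line held 3 or fewer. Wild type alone read 48 of the 75, and bta1-1 alone read 27. The 7 blocks are stretches of locus numbers on chromosomes 1, 4, 5, 10, 11 and 12. Together they held 1159 loci and a further 66 genes of this kind, 51 read in wild type and 15 in bta1-1. The members were selected on their read counts in these same 4 libraries, so their difference between the lines is given as a description and was not tested.

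The libraries were made from total RNA of Oryza sativa seedlings (cultivar label L. japonica) aged 7 days, kept at 14 h light and 10 h dark. Wild type is the strain SN9816 with 2 biological replicates, and the mutant is the strain bta1-1, also with 2. The series title concerns BTA1 in tiller angle, shoot gravitropism and auxin. The sources used here do not say how bta1-1 was made or whether it shares the SN9816 background, so effects of the mutation and other differences between the lines cannot be told apart. Neither the number of plants per library nor the parts of the seedling taken is stated.

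Rice accessions differ in gene content as well as in sequence. A transcript that is abundant in one line and missing from another is known from presence and absence of whole genes, from altered promoters, from silenced copies and from inserted mobile elements, and families that take part in defence are known for such variation in rice. Rice locus identifiers carry the chromosome number and a locus number that rises along the chromosome. Loci were first numbered in steps that end in 00, and loci annotated later took numbers in between. By identifier, 1 of the 37830 loci could be matched to the RefSeq gene table used here, and 0 of the 75 members. The members are described by identifier, position, length and level, and no function is given.

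Library totals ran from 15093108 to 20334851 counted reads, and rice locus identifiers took 99.28% to 99.39% of them. LAZY1 (OS11G0490600), a gene known for its role in tiller angle, lies inside an excluded block. It was counted 767 and 461 times in wild type and 70 and 89 times in bta1-1, a 7.65-fold lower level (log2 fold change -2.93, SE 0.26, adjusted p = 0.000445 by edgeR's quasi-likelihood test). Its RNA was therefore lower in both libraries labelled bta1-1, and still detected. The 5 green shoot markers summed to 19497 and 29609 counts per 1000000 counted reads (CPM) in wild type and 37934 and 19221 CPM in bta1-1. The 6 root markers summed to 1022 and 688 CPM against 642 and 846 CPM. Most of each root sum came from NAS1 (563 and 300 against 326 and 487 CPM) and NAS2 (423 and 362 against 286 and 333 CPM). LSI1 stood at 5.85 to 11.9 CPM and IRT1 at 0.838 to 2.17 CPM. The lines overlapped in both sums, and among the markers the silicon transporter gene LSI2 was near 0, with at most 1 read in any library.

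The rule picked out a small share of the loci that could have met it. Outside the blocks, 0.247% of the 19427 loci with 20 or more reads in both wild type libraries belonged to the set, and 0.136% of the 19860 loci with 20 or more reads in both bta1-1 libraries. Inside the blocks the same shares were 9.53% of 535 and 3.05% of 491. The count depends on having 2 libraries per line. Without wild type replicate 1 the rule would take 99 genes as read in bta1-1 in place of 27, without bta1-1 replicate 1 it would take 49, and without wild type replicate 2 it would take 73 as read in wild type in place of 48.

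The contrast between the lines was steep at every member, as the rule demands. The 48 genes read in wild type held 12334 reads in its libraries and 64 in those of bta1-1. The 27 genes read in bta1-1 held 7981 reads there and 30 in wild type. In the line that lacked them, 17 of the 48 and 13 of the 27 had 0 reads in both libraries, and 12 and 8 more had a single read. A single read was worth 0.0481 to 0.0698 CPM, depending on the library. In bulk RNA, fewer cells of a type and less RNA per cell cannot be told apart, and neither can an untranscribed locus, an absent one and one whose reads do not align to the reference.

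**Figure D1:**
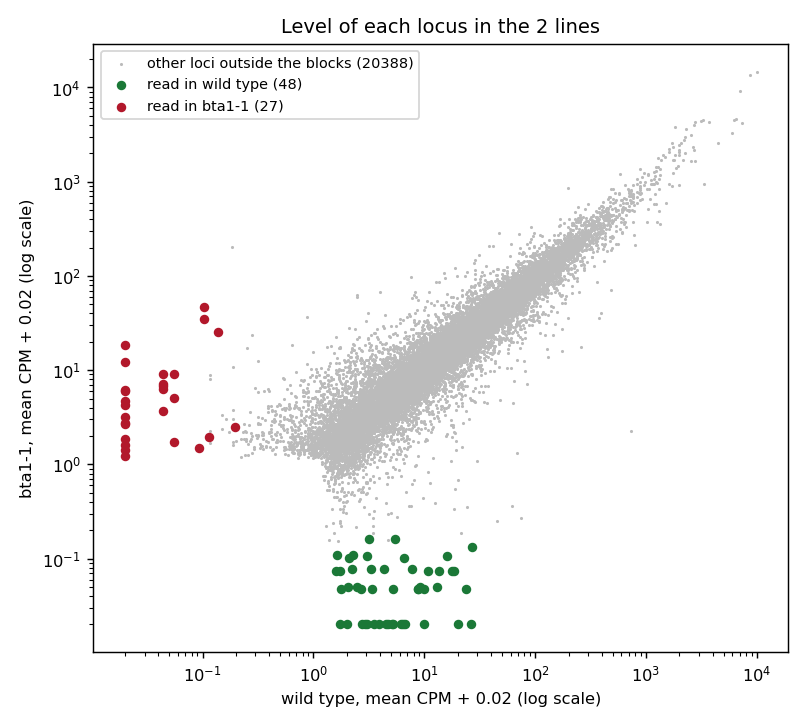
Mean CPM + 0.02 in wild type (x axis) and bta1-1 (y axis), both on log scales, for 20388 other loci outside the blocks (grey) and the 75 members (green, read in wild type; red, read in bta1-1). The members lie along the 2 axes, apart from the diagonal, and at the low end of the levels in the line that reads them.

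Most members were modestly expressed where they were read. Their mean level in the reading line ran from 1.20 to 47.2 CPM with a median of 4.73 CPM, while other loci past the same read limit had a median of 17.9 CPM in wild type and 17.5 CPM in bta1-1. Per length, the median member read in wild type stood at 4.09 FPKM (fragments per kilobase and per 1000000 reads, as deposited), against 12.01 FPKM for the other loci. Members read in bta1-1 had a median of 2.96 FPKM against 11.9 FPKM. Of the members, 10 read in wild type and 5 read in bta1-1 reached 10 CPM. The set therefore holds few strongly expressed genes, and the rule itself bears on this. Its limit of 3 reads leaves out abundant genes with slightly more reads in the other line. One such gene was OS06G0204100, with 3938 and 3194 bta1-1 reads and 1 and 4 wild type reads.

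The members were also short and often carried late numbers. Their median length, derived from the deposited counts and FPKM, was 1139 bases, against 1492 bases for the 20388 other loci, and 12 of 75 (16%) were under 600 bases against 6.26%. The shortest was OS03G0244466 with 240 bases and the longest OS05G0380300 with 4693 bases. Numbers that do not end in 00 were carried by 14 of 75 members (18.7%) and by 7.02% of the other loci. These shares are descriptions over genes, which are not replicates, and low level, short length and late annotation were not separated from each other.

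Replicates of the reading line lay within 2-fold of each other in CPM for 44 of 48 members read in wild type (91.7%, against 94.5% of other loci) and for 25 of 27 read in bta1-1 (92.6%, against 93.7%). The 4 exceptions in wild type, OS12G0148500, OS09G0103300, OS06G0208151 and OS01G0692200, were all higher in replicate 2. Those in bta1-1 were the neighbouring loci OS01G0162300 and OS01G0162400, both higher in replicate 1.

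Among genes read in wild type, OS01G0714600 on chromosome 1 had the highest mean level. It held 703 and 283 reads in wild type replicates 1 and 2 and 2 in each bta1-1 library, or 26.8 ± 9.92 CPM (SD, n = 2) in wild type. The ratio of the pooled levels was 247, with an exact Clopper-Pearson 95% interval of 96.0 to 907. The wide interval comes from the 4 reads in bta1-1, and it covers counting error only, as do all intervals and floors here.

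OS05G0479025 on chromosome 5 was almost as high and had no read in bta1-1. Its 487 and 422 reads in wild type gave 26.4 ± 4.28 CPM (SD, n = 2), at least 303-fold above bta1-1 when 3 reads over both libraries of that line are taken as the floor. OS01G0768600 on chromosome 1 also had no read in bta1-1, with 380 and 318 reads in wild type, or 20.2 ± 2.78 CPM and at least 233-fold higher. The rule sets the lines apart at both genes, and the wild type replicates lay within 2-fold of each other in CPM.

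OS01G0710800 lies ahead of OS01G0714600 on chromosome 1 and had 458 and 369 wild type reads and 0 and 1 bta1-1 reads, a pooled ratio of 828 (95% interval 148 to 32726). In rank, 2 genes of chromosome 12 followed. OS12G0166700 had 426 and 239 wild type reads and 0 and 2 bta1-1 reads, and OS12G0509900 had 382 and 247 reads and again 0 and 2. OS12G0509900 is only 372 bases long, and per length it was the highest member of all at 47.2 ± 4.60 FPKM (SD, n = 2).

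The other genes of the wild type group above 10 CPM were OS03G0246050, OS02G0616100, OS10G0409400 and OS01G0672600. Their wild type levels were 16.0 ± 2.28, 13.6 ± 6.28, 13.1 ± 1.69 and 10.7 ± 4.77 CPM (SD, n = 2), and each had 1 to 3 reads in bta1-1 in all. The spread between replicates was widest, relative to the level, at OS02G0616100 and OS01G0672600, where replicate 2 was higher.

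In bta1-1 the leading gene was OS11G0635500 on chromosome 11, the most abundant of all 75. Its libraries held 681 and 990 reads in bta1-1 replicates 1 and 2, and 2 and 1 in those of wild type. That is 47.2 ± 9.04 CPM (SD, n = 2) in bta1-1, with a pooled ratio of 557 (95% interval 190 to 2702). By the rule, no library of wild type could reach either mutant library.

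OS01G0162300 and OS01G0162400 on chromosome 1 were among the next. OS01G0162300 held 824 and 373 reads in bta1-1, with 2 and 1 in wild type, or 34.8 ± 20.6 CPM (SD, n = 2). OS01G0162400 had 486 and 150 reads in bta1-1 and none in wild type, at least 212-fold higher. The lines did not overlap at either gene, as the rule demands. Between the mutant libraries, bta1-1 replicate 1 stood above replicate 2 by 1.29 and 1.84 on the log2 CPM scale.

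OS02G0807750 on chromosome 2 was steady between replicates. Its 429 and 452 reads made 25.1 ± 0.877 CPM (SD, n = 2), with 2 reads in each wild type library. OS02G0808500 nearby had 250 and 168 reads in bta1-1 and none in wild type, at least 139-fold higher. The next 5 in rank, OS01G0150950, OS02G0807600, OS05G0266900, OS02G0834100 and OS02G0614966, had 91 to 202 reads in each bta1-1 library and a single read each in wild type.

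**Figure D2:**
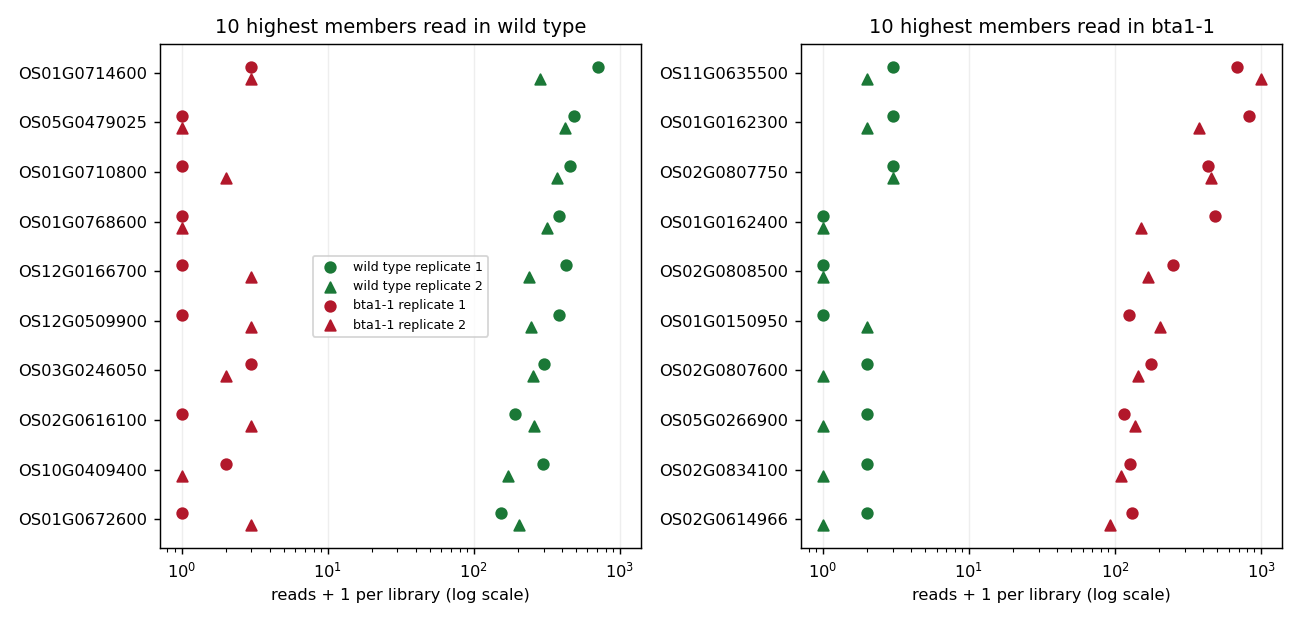
Reads + 1 on a log scale (x axis) in each of the 4 libraries for the 10 members with the highest mean CPM in wild type (left) and in bta1-1 (right); circles are replicate 1, triangles replicate 2, green wild type and red bta1-1. The reading line stands between 91 and 990 reads, and the other line at 0 to 2.

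Members with no read in the other line reached down to the limit of the rule. After OS05G0479025 and OS01G0768600, the highest of the 17 in wild type were OS12G0148500 with 113 and 205 reads, OS10G0409566 with 149 and 87, and OS06G0208151 with 83 and 127. Taken against the floor these were at least 106-fold, 78.7-fold and 70.0-fold higher. Among the 13 in bta1-1, OS02G0792100 with 103 and 110 reads and OS02G0807300 with 108 and 102 followed OS01G0162400 and OS02G0808500, and were at least 71.0-fold and 70.0-fold higher. The lowest, OS05G0253700, had 21 reads in each bta1-1 library, which allows a bound of 14.0-fold and no more.

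The 75 genes were spread over 11 of the 12 chromosomes. Chromosome 2 held 15 members, 10 of them read in bta1-1, chromosome 1 held 13 and chromosome 12 held 11, of which 10 were read in wild type. Chromosome 4 held none among 1843 loci that could have met the rule. Relative to such loci, the share was highest on chromosome 12 with 1.01% of 1092, followed by chromosome 2 with 0.606% of 2474 and chromosome 10 with 0.598% of 836. On chromosome 10 all 5 members were read in wild type.

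Few members lay close to a block. Of the 75, 2 lay within 50 listed loci of a block, OS11G0451700, 11 loci before the block that holds LAZY1, and OS01G0768600, 44 loci before a block of chromosome 1. At least 100 loci from every block, or on chromosomes without one, were 69 members. OS11G0451700 had 64 and 42 wild type reads and 2 and 1 bta1-1 reads.

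**Figure D3:**
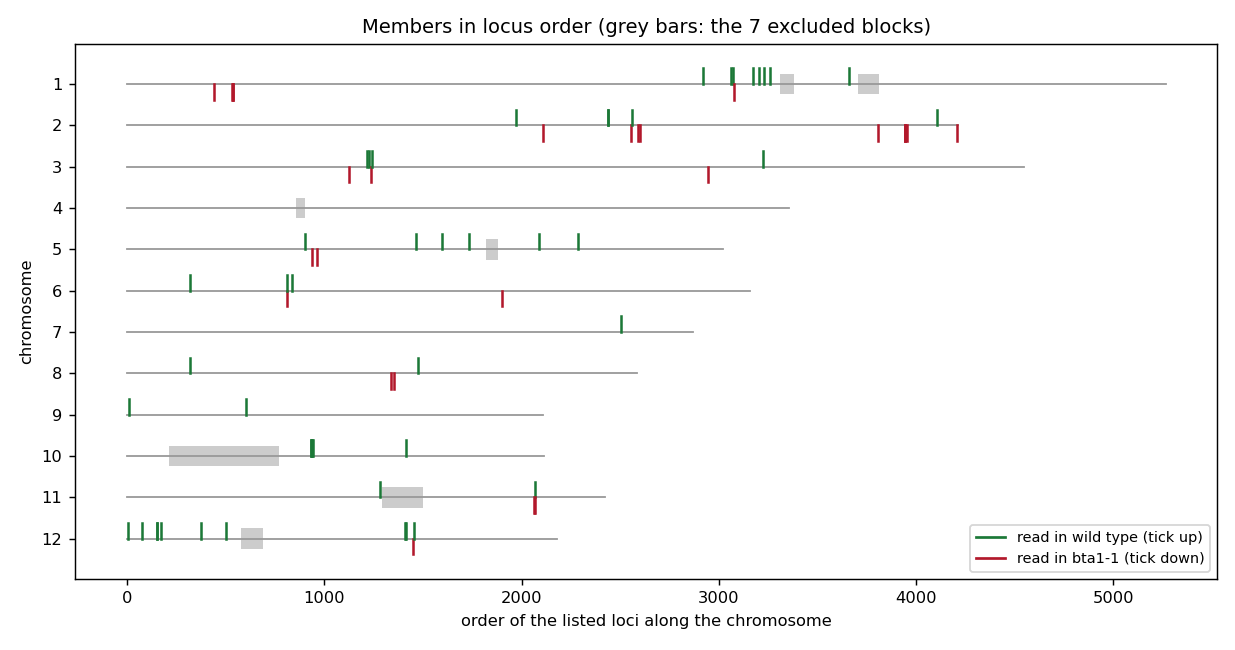
Members in the order of the listed loci (x axis) on the 12 chromosomes (y axis); green ticks point up for genes read in wild type and red ticks down for genes read in bta1-1, and grey bars are the 7 excluded blocks. Members gather in short groups, for example on chromosomes 2, 3, 10 and 12, some with both colours.

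Although chosen outside the blocks, many members lay beside each other. With at most 10 listed loci between neighbours, 32 of the 75 fell into 12 runs of 2 to 4 genes, and 43 stood alone. Of the runs, 4 held genes read in wild type alone, 2 held genes read in bta1-1 alone, and 6 held genes of both lines. In those 6, one line read a gene and the other line read another gene a few loci away. With at most 5 loci allowed between members there were 11 runs, and with at most 20 there were 15.

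The largest runs each held 4 genes, 1 for each line. On chromosome 10, OS10G0409400, OS10G0409566, OS10G0410100 and OS10G0410900 were read in wild type with 298 and 171, 149 and 87, 96 and 35, and 88 and 75 reads. The mutant had a single read over the 4 genes. Between them lie loci that both lines read: OS10G0410600 had a log2 fold change of 0.37 and OS10G0410700 of -0.27, and neither was called (adjusted p = 0.647 and 0.768 by edgeR's quasi-likelihood test). In the same stretch OS10G0409900 had 1012 and 646 wild type reads and 289 and 390 bta1-1 reads. It was lower in bta1-1 (log2 fold change -1.29, SE 0.23, adjusted p = 0.0163, edgeR). By limma on log2(FPKM + 1) for all genes with any value it was not called (adjusted p = 0.17). OS10G0410750 went the other way, with 10 and 16 bta1-1 reads and none in wild type (adjusted p = 0.0274, edgeR). Without wild type replicate 1 or 2 that last call was lost (adjusted p = 0.119 and 0.0717), as it was when replicate numbers were blocked (0.0549) and by limma on log2(FPKM + 1) for all genes with any value (0.156).

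On chromosome 2, OS02G0807300, OS02G0807600, OS02G0807750 and OS02G0808500 were read in bta1-1. Over the 4 genes wild type had 5 reads in all, and bta1-1 had 102 to 452 per gene and library. OS02G0807700 among them had 24 and 8 wild type reads and 637 and 644 bta1-1 reads (log2 fold change 5.35, SE 0.36, adjusted p = 0.000128, edgeR). OS02G0807800, which follows OS02G0807750, was higher in bta1-1 too, by 1.92 on the log2 scale (adjusted p = 0.0272, edgeR). The call was lost by limma on log2(FPKM + 1) for all genes with any value (adjusted p = 0.185). It was also lost without wild type replicate 2 (log2 fold change 1.55). OS02G0807900 followed with 1.43 (adjusted p = 0.0334), a call that was lost without wild type replicate 1, wild type replicate 2 or bta1-1 replicate 1 (adjusted p = 0.0656, 0.117 and 0.102). The call was also lost when replicate numbers were blocked in edgeR (adjusted p = 0.0702) and by limma on log2(FPKM + 1) and log2(FPKM + 0.1) (adjusted p = 0.0611 and 0.057) and, without the filter on low values, on log2(FPKM + 1) (0.216). Opposite in sign, OS02G0808100 had -2.08 and was not called (adjusted p = 0.0969). Neither the strand setting of the counting nor the coordinates of the loci were known here. Reads shared by overlapping or near-identical loci of a run cannot be told apart from reads of each.

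Chromosome 11 gave a run with members of both lines. OS11G0635000 had no read in wild type and 48 and 64 in bta1-1. OS11G0635300, the next locus, had 51 and 23 wild type reads and 1 and 0 bta1-1 reads. OS11G0635500, described above, was again read in bta1-1. The 1 other locus in the stretch had no read in any library. Each line thus read a different choice of these 3 genes.

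On chromosome 12, OS12G0516000 (0 and 1 reads in wild type, 84 and 95 in bta1-1) and OS12G0516800 (49 and 43 against 0 and 1) framed 3 tested loci that all passed the test. OS12G0516200 had 44 and 29 wild type reads and 526 and 440 bta1-1 reads (log2 fold change 3.73, SE 0.30, adjusted p = 0.00031, edgeR). OS12G0516300 had 1569 and 884 against 24 and 22, at -5.70 (SE 0.30, adjusted p = 3.31e-05), and OS12G0516700 had 1127 and 1043 against 65 and 93, at -3.82 (SE 0.28, adjusted p = 0.000225). In order along the chromosome, OS12G0516000 and OS12G0516200 were thus higher in bta1-1, and OS12G0516300, OS12G0516700 and OS12G0516800 in wild type.

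**Figure D4:**
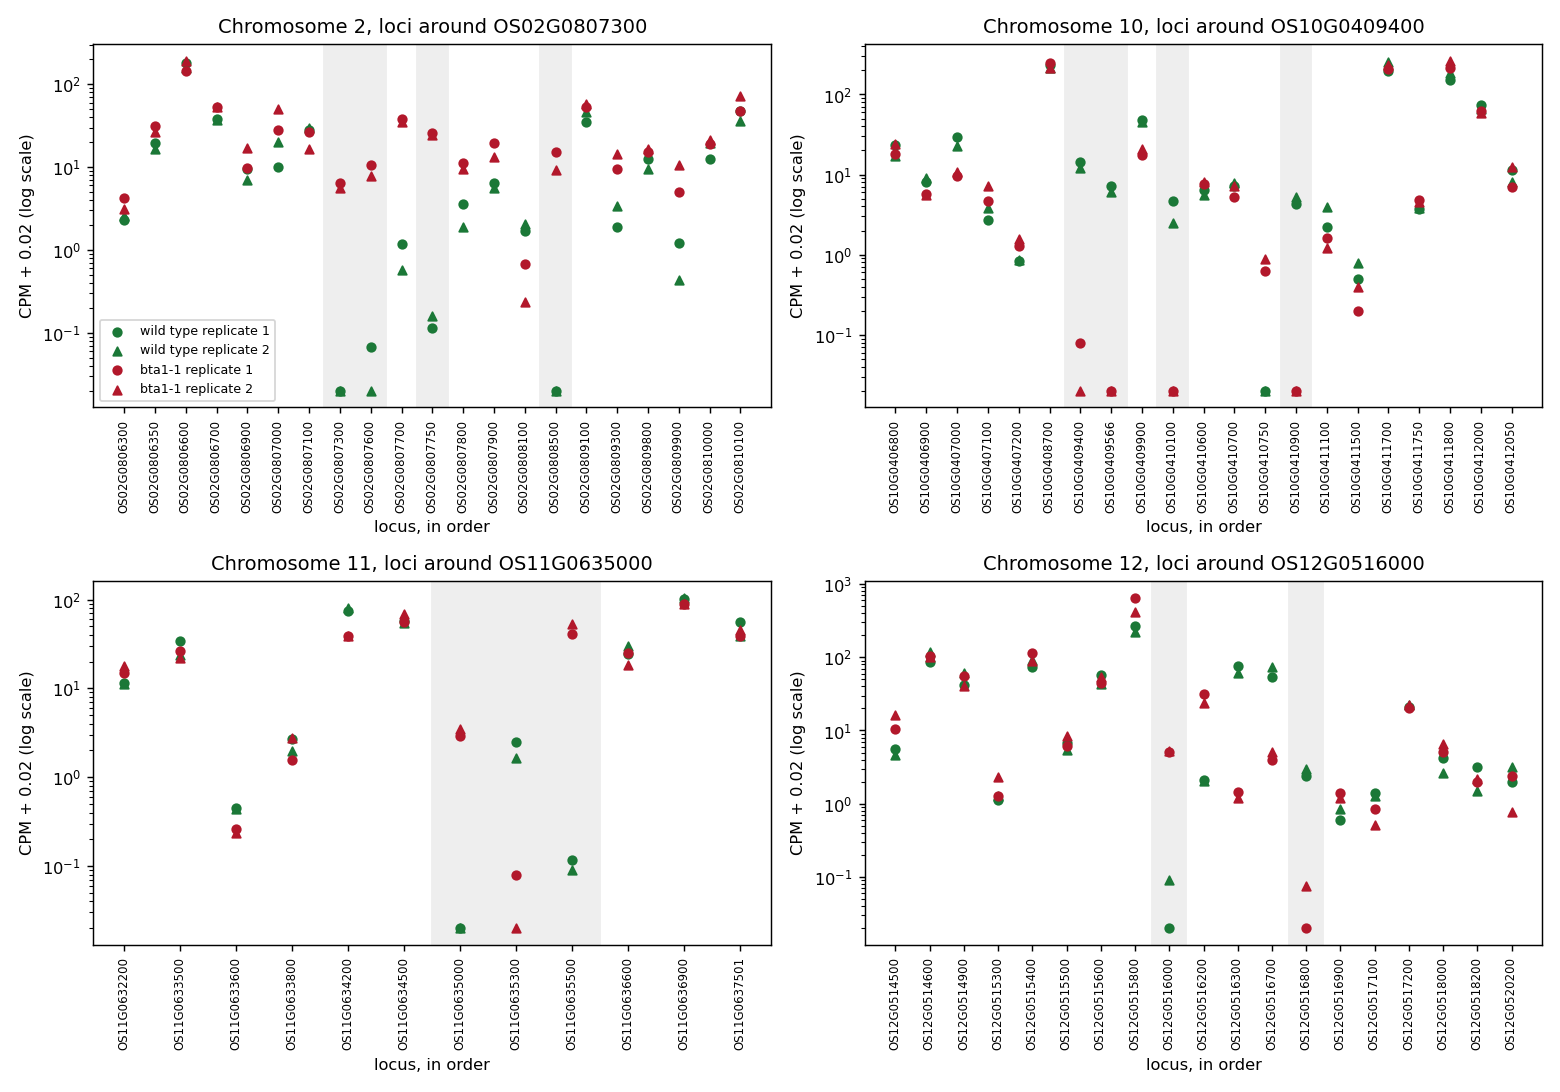
CPM + 0.02 on a log scale (y axis) in each library for loci with at least 20 reads over the 4 libraries, in order (x axis), around 4 runs on chromosomes 2, 10, 11 and 12; grey bands mark members, circles replicate 1, triangles replicate 2, green wild type and red bta1-1. Inside the bands the colours are far apart, as the rule demands. Several loci between or beside the bands are read alike in all 4 libraries.

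The other 2 runs of 3 genes with both lines were looser. On chromosome 1, OS01G0691050 and OS01G0692200 were read in wild type (44 and 40, and 62 and 87 reads), and OS01G0693466 in bta1-1 (91 and 73 reads). Of 10 tested loci between them, 0 were called by edgeR. On chromosome 3, OS03G0246050 and OS03G0248200 were read in wild type and OS03G0247300 in bta1-1 with 39 and 57 reads. There 1 of 10 tested loci in between was called, OS03G0246100. It was higher in bta1-1 by 2.48 on the log2 scale (SE 0.40, adjusted p = 0.0116, edgeR). That call was lost by limma on log2(FPKM + 1) for all genes with any value (adjusted p = 0.151).

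Other runs spanned 2 to 5 listed loci. On chromosome 1, OS01G0162300, OS01G0162400 and OS01G0162500 follow each other, the last with 27 and 28 reads in bta1-1 and none in wild type. OS02G0600650 (94 and 80 reads) and OS02G0601000 (214 and 104) are next to each other, as are OS12G0117850 (51 and 48) and OS12G0117900 (60 and 69), and OS12G0509900 and OS12G0510000 (134 and 57). All 6 were read in wild type, with 0 to 2 reads per library in bta1-1. OS02G0614966, read in bta1-1, and OS02G0616100, read in wild type, enclose 3 loci without a read. OS06G0204800 (25 and 44 reads in bta1-1) and OS06G0205100 (47 and 25 in wild type) enclose OS06G0205000, which was counted 161 and 116 times in wild type and 172 and 135 times in bta1-1 (adjusted p = 0.876, edgeR).

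Loci beside the members held a larger share of called genes than loci elsewhere outside the blocks, and about the same share as loci inside the blocks. The rule was applied to their reads too, and they are the loci that did not meet it. Counting the 5 tested loci on each side of every member, outside the blocks and without the members, 60 of 560 passed the test (10.7%), against 4.63% of the 22527 tested loci outside the blocks that are not members, and 5.41% of the 24396 features tested in all. Of the 60, 29 were higher in bta1-1 (5.18% of 560, against 2.63% of the non-member loci) and 31 lower (5.54% against 1.99%). Inside the 7 blocks, 60 of the 581 tested loci that did not meet the rule were called (10.3%), 11 higher and 49 lower in bta1-1. Differences between these shares were not tested, because neighbouring genes are not independent samples. Without wild type replicate 1 the count was 39 of 561, or 6.95%, beside 3.27% of the loci elsewhere outside the blocks. Leaving out loci within 50 of a block, an alternative chosen after seeing the data, gave 57 of 537, or 10.6%.

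The share was highest next to a member and lowest at the fifth tested locus. It was 25 of 127 (19.7%) for the nearest tested locus, 13 of 118 (11.02%) for the next, 9 of 110 and 9 of 103 for the following ones, and 4 of 102 (3.92%) at the fifth. Beyond the fifth locus, 4.47% of 21967 were called. Median absolute log2 fold changes were 0.59 at the nearest locus and 0.30 beyond the fifth. Of the 60 called neighbours, 42 were higher in the line that read the nearest member and 18 in the other line. Beside members read in wild type, 7.2% of 375 tested loci were called lower in bta1-1 and 3.73% higher. Beside members read in bta1-1, 8.11% of 185 were called higher in bta1-1 and 2.16% lower. Elsewhere outside the blocks the shares were 2.57% higher and 1.90% lower. Differences between these shares were not tested. Assigned to their nearest member, the 60 belonged to 38 of the 75 members. No matching share was taken over other loci, so that count stands without a background.

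**Figure D5:**
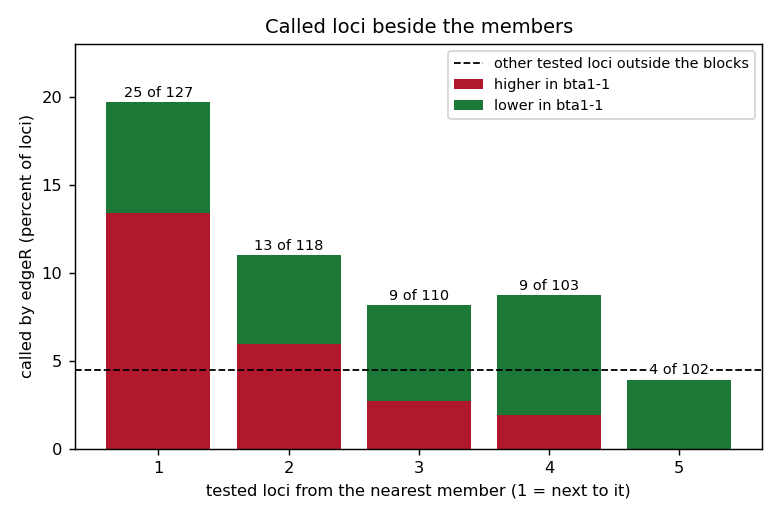
Percent of tested loci called by edgeR (y axis) by their distance from the nearest member, counted in tested loci (x axis), with higher in bta1-1 in red and lower in green; numbers above the bars are called loci of tested loci, and the dashed line is the 4.47% of other tested loci outside the blocks. The bar next to the member is the highest at 19.7%, and that of the fifth locus the lowest at 3.92%.

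OS06G0204100 on chromosome 6, near OS06G0204800, had 3938 and 3194 bta1-1 reads and 1 and 4 wild type reads. Its log2 fold change was 10.40 (SE 0.54, adjusted p = 3.7e-05 by edgeR), and 1 read in 1 library kept it out of the set. OS12G0118200 and OS12G0118400 on chromosome 12, beside OS12G0117850 and OS12G0117900, had 1258 and 900, and 1454 and 1117 reads in wild type. In bta1-1 they had 5 and 7, and 2 and 7 reads (log2 fold changes -7.47 and -8.14, adjusted p = 2.61e-05 and 3.31e-05). These 3 loci missed the rule by their few reads in the other line and are no members.

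Other neighbours also stood at very different levels in the lines. OS02G0825650 and OS02G0825600 on chromosome 2 were higher in bta1-1 by 6.47 and 4.07 on the log2 scale (adjusted p = 6.93e-05 and 0.000234, edgeR). Yet the member beside them, OS02G0824800, was read in wild type, at 180 and 135 counts against 1 and 0 for bta1-1. OS02G0825650 was another locus that missed the rule by few counts, with wild type at 5 and 4 against 409 and 410 for the mutant. OS02G0825600 was well detected in each line, wild type at 103 and 42 counts and the mutant at 1131 and 1235. By number OS11G0454300 lies between OS11G0451700 and the excluded block that holds LAZY1, and so close to that block. It had 372 and 317 wild type reads and 11 and 12 bta1-1 reads (log2 fold change -4.92, SE 0.35, adjusted p = 0.000179, edgeR). The first pair moved against its member and the last locus with it.

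Further members stood alone. On chromosome 12, beside genes named above, OS12G0101000 (100 and 88 reads in wild type, 2 and 3 in bta1-1), OS12G0109600 (44 and 48 against none) and OS12G0121200 (114 and 98 against none) lie in its first part. On chromosome 5, OS05G0244700, OS05G0380300, OS05G0403000, OS05G0425301 and OS05G0507400 were read in wild type with 42 to 155 reads per library. OS05G0253700 and OS05G0266900 were read in bta1-1, the latter with 114 and 135 reads. Chromosome 5 thus held members of both lines with no run among them.

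Chromosomes 8, 9, 10 and 7 added single genes. OS08G0141000 (97 and 81 reads) and OS08G0406700 (63 and 53) were read in wild type, and OS08G0376100 (27 and 33) and OS08G0378000 (51 and 80) in bta1-1. OS09G0103300 (127 and 199) and OS09G0356000 (69 and 47), OS10G0491100 (182 and 127) and OS07G0650100 (34 and 22) were all read in wild type. None of these 8 had more than 2 reads in any library of the other line. OS10G0491100 was among the steadiest, at 8.81 ± 0.0828 CPM (SD, n = 2).

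The remaining single genes lay on chromosomes 1, 2, 3 and 6. OS01G0706100 (57 and 25 reads), OS01G0718500 (45 and 28), OS02G0528500 (34 and 27), OS03G0244466 (34 and 26), OS03G0693900 (26 and 31) and OS06G0141400 (57 and 24) were read in wild type near the lower limit. OS02G0552700 (52 and 99), OS02G0620000 (20 and 30), OS02G0621400 (29 and 36), OS03G0232200 (25 and 27), OS03G0648800 (35 and 52) and OS06G0541132 (33 and 61) were read in bta1-1. At this depth such genes are set apart by few reads.

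Genes on either side of the limits differed by little. OS07G0650100, with 34 and 22 reads in wild type, and OS02G0620000, with 20 and 30 in bta1-1, were just inside the lower limit. OS02G0596200, with 18 and 21 reads in wild type and none in bta1-1, and OS10G0420400, with 18 and 26 in bta1-1 and 1 and 3 in wild type, were just outside. With a highest count of 3 reads in the line that lacked them, 6 genes of wild type and 2 of bta1-1 were inside, and with 4 reads 7 and 10 were outside. Among the latter were OS06G0226000, with 953 and 635 reads in wild type and 4 in each bta1-1 library, and OS09G0536100, with 134 and 177 in bta1-1 and 4 and 0 in wild type. A limit of 0 reads would have kept 17 genes of wild type and 13 of bta1-1, and a lower limit of 10 reads would have taken 79 and 51.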

How the data were processed

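Per the submitters' processing notes, the tools were HTSeq 0.6.1, TopHat2 2.0.12 and Bowtie2 2.2.3, on the build IRGSP-1.0, without a role or order. The authors deposited read counts per gene as whole numbers without normalization, for 91960 features and 4 libraries, and FPKM values for the same features, normalized for length and library size. Counts divided by FPKM gave 1 whole length per gene (within 0.01 base in 100% of 123342 values). Replicates were not copies of each other (chi-square per degree of freedom 33.1 and 45.8, genes with 10 or more reads).

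All 24396 features that passed filterByExpr (minimum count 10, minimum total 15) entered edgeR 4.0.16 under R 4.3.3, with TMM scaling, a robust quasi-likelihood fit of the line alone and a two-sided test. P-values were adjusted over all of them by Benjamini-Hochberg and called under 0.05. All 75 members passed this filter, which their reading line alone ensures. CPM are TMM-scaled, and standard errors are the log2 fold change over the square root of F. In simulated counts for this comparison over 24396 features, 100 were changed 2-fold and 100 were changed 4-fold, all with a mean above 20 reads. The test found 16% of the 2-fold and 80% of the 4-fold changes, and called 8 features that had not been changed. Recovery at lower counts was not measured. P-values rest on the spread between these samples, of which there are 2 per line, with estimates of spread that draw on all features tested. Alternatives used DESeq2 1.42.0 and limma 3.58.1.

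Positions are ranks of locus numbers, since no genome was used here. Named are LAZY1, the 10 highest members per line, members of runs, up to 5 per line without a read in the other line, loci just inside and outside the limits (those with most reads where there were many), and up to 10 called neighbours by p. The other members and the tested loci within runs were named after their values were seen. The members, the rule and the lists were chosen with earlier results of these data known.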

Additional observations from a re-analysis of the deposited data

How the results depend on the processing

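The count of members follows its limits. At most 0 reads in the other line left 17 genes of wild type and 13 of bta1-1, at least 10 reads in one line gave 79 and 51, and at least 50 gave 28 and 16. Scaled to the smallest library the counts were 47 and 30. Leaving out a library gave 54 to 73 genes of wild type and 31 to 99 of bta1-1, 13 to 17 runs and 35 to 42 members in runs. Each of these left-out sets contained the 48 and 27 members, because the rule then asks less.

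Over all features, 675 were higher and 644 lower in bta1-1. The counts were 1582 and 1322 without a filter on low counts, and 44 and 125 by limma on log2(FPKM + 1) for all genes with any value. Leaving out a library gave 401 to 1202 higher (401 without wild type replicate 2, 1202 without bta1-1 replicate 1) and 482 to 854 lower. Called neighbours numbered 60, and 12 by limma on log2(FPKM + 1) for all genes with any value (2.08% against 0.119% elsewhere), 25 with 1 locus on each side, 95 with 10, 35 when the nearest locus was left out after seeing the data (8.08%), and 39 to 74 without a library. In each setting run the percent called was higher among neighbours than among other loci outside the blocks. The cause of these shifts was not tested.

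With the replicate number as a block, 359 features were higher, 415 lower and 36 neighbours called (6.43% against 2.28% elsewhere). The labels do not say that equal numbers mark a shared batch, and deviations of equally numbered replicates correlated at -0.416 over 24396 features, so the block pairs nothing known. With crossed numbers, tried after seeing this, the counts were 1972, 1772 and 122. Of 352 log2 fold changes of 44 named members under the alternatives, 85 moved by more than the spread between replicates; their sign is fixed by the rule. Of 16 tested named loci, 5 lost their call in at least 1 setting and 0 turned sign. Reads of 3 or fewer per library are at the limit of this depth.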
